A study of Mus musculus with 13 samples.

Results

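Here 5 mature miRNAs commonly read as vascular were followed in mouse plasma, namely both arms of the miR-126a hairpin (mmu-miR-126a-3p and mmu-miR-126a-5p), mmu-miR-143-3p, and both arms of the miR-145a hairpin (mmu-miR-145a-5p and mmu-miR-145a-3p). They were chosen by name, and all 5 of them were found among the 1907 mature miRNAs of the count table. All 5 also passed the filter on low counts, which left 368 miRNAs for testing. Small RNA was sequenced from the plasma of 13 mice, 1 library per mouse. The groups were 3 naive wt mice (C57BL/10J), 3 naive mdx mice (C57BL10ScSn-Dmdmdx/J), 4 mdx mice gavaged with vehicle (methylcellulose at 0.5%) and 3 mdx mice gavaged with 37.5 mg/kg of Givinostat, which inhibits histone deacetylases. Both gavaged groups were dosed 5 days per week for 15 weeks, and naive mice of either genotype received nothing. The mdx mice carry a point mutation of the dystrophin gene, by which dystrophin is lost, and so model Duchenne muscular dystrophy. Every treated mouse carried that mutation, so no group holds treated wt mice. By the methods of the study the mice were males bought as young adults, and the labels state no age. The labels give 1 strain, C57BL/10J, for every sample, and the genotype was taken from the sample titles. The libraries held 1167161 to 2899315 counts.

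miRNAs are cut from RNA hairpins as short single strands that lower the output of the messenger RNAs they pair with, mostly through the seed, bases 2 to 8. miR-126 is the characteristic miRNA of endothelial cells, where it sustains signalling by vascular endothelial growth factor, and it is also carried by platelets. miR-143 and miR-145 are made from a shared transcript in smooth muscle cells and fibroblasts, where they hold smooth muscle in its contractile state. Plasma mixes RNA from blood cells, vessel wall and all organs, and a level in plasma cannot tell apart fewer releasing cells, less RNA released per cell and slower or faster clearance.

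The miR-126a hairpin lies on chromosome 2 of GRCm38, bases 26591357 to 26591429 of the plus strand, inside Egfl7, an endothelial gene. The hairpin falls in an intron of 7 protein-coding Egfl7 transcripts of GENCODE and in an exon of 1 transcript with a retained intron. The RefSeq sequences (GRCm38.p6) are shown because miR-126a-3p is the 1 of the 5 that passed the test in naive mdx against naive wt mice, and because a second hairpin, Mir126b, overlaps it on the opposite strand (bases 26591363 to 26591420). In the mature miR-126a-3p the capitals mark the seed, in the hairpin they mark the miR-126a-3p arm, and in miR-126b-5p they mark the run of 19 bases complementary to miR-126a-3p.
miR-126a-3p: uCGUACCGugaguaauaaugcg
Mir126a hairpin: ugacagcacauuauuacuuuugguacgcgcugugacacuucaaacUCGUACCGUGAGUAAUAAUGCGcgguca
miR-126b-5p: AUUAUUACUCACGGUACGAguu
The other miRNAs of the RefSeq table, which holds 1738 mature sequences, include 0 with the seed of miR-126a-3p. The antisense arms were barely read, since miR-126b-5p had 0 to 2 counts per library and miR-126b-3p had 0 in each of the 13 libraries. Taking 3 counts as the limit of a library where none was read, such a value leaves room for a level of 1.03 to 2.57 CPM (counts scaled to a common library size).

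The 5 miRNAs together took 1.11% to 2.63% of the counts of a library. By rank within a library, miR-143-3p stood between places 14 and 41 and miR-126a-3p between places 16 and 44 of the 1907. miR-145a-5p stood between places 65 and 82, miR-145a-3p between 77 and 103, and miR-126a-5p between 81 and 124. The 2 leading arms were thus read at 4386 to 18872 counts per library and the 3 others at 241 to 2271, so counting error was small beside the spread between mice for each of them. Mature miRNAs are close in length, yet ligation favours some ends over others, so these places order reads and not molecules.

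mmu-miR-126a-3p, the guide arm of the hairpin, had 6622, 9592 and 6313 CPM in naive wt mice 86, 89 and 95, on counts scaled between libraries by TMM (a trimmed mean of log ratios). In naive mdx mice 36, 37 and 39 it had 2815, 3743 and 4196 CPM. It had 4426, 9822, 4054 and 3529 CPM in vehicle mice 40, 41, 42 and 43. In Givinostat mice 31, 34 and 35 it had 6841, 6492 and 3631 CPM. On this scale all 3 naive mdx mice lay below all 3 naive wt mice, and the Givinostat mice spanned both ranges. Vehicle mouse 41 was higher than any other mouse of the series on this scale. By share of counts naive wt mouse 89 was the highest (1.18% against 1.04% in mouse 41). The group means were 7509 ± 1811 CPM (SD, n = 3) in naive wt, 5655 ± 1762 (n = 3) with Givinostat, 5458 ± 2932 (n = 4) with vehicle and 3585 ± 704 (n = 3) in naive mdx mice. No neighbours in that order differed beyond their spread.

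mmu-miR-126a-5p, the passenger arm, which also represses targets of its own in endothelium, was read far less. It had 281, 590.0 and 427 CPM in the naive wt mice, in the same order, against 209, 234 and 257 CPM in the naive mdx mice. The vehicle mice had 201, 488, 282 and 154 CPM and the Givinostat mice 425, 330 and 348 CPM. Again no naive mdx mouse reached the naive wt range (257 CPM at the highest against 281 at the lowest), and again mouse 41 led the vehicle group. The order of the group means was that of the other arm, from 432 ± 155 CPM in naive wt through 368 ± 50.9 with Givinostat and 281 ± 148 with vehicle to 233 ± 23.9 in naive mdx mice, and no neighbours in it differed beyond their spread.

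**Figure D1:**
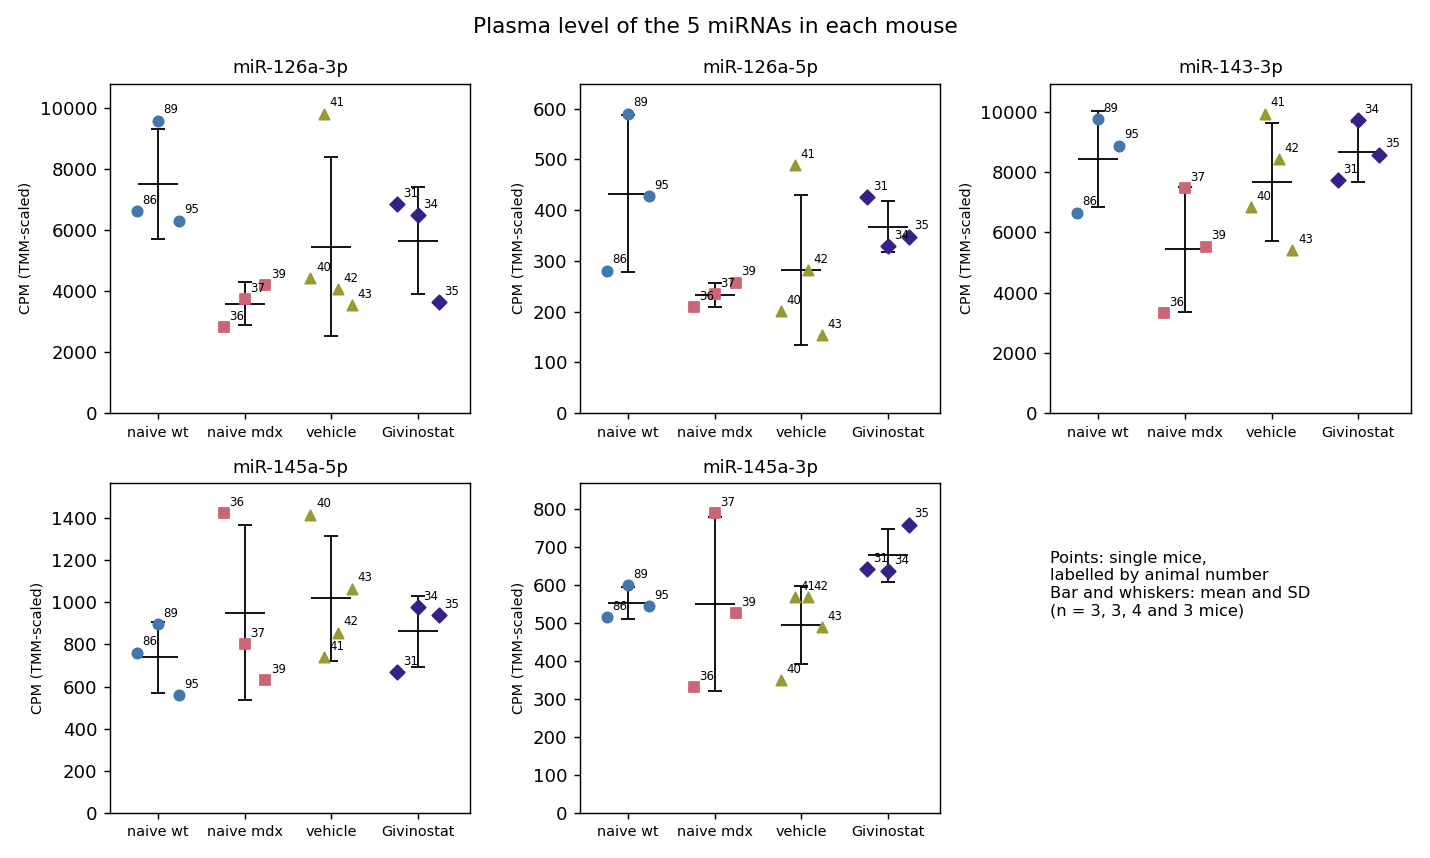
Level of each of the 5 miRNAs in every mouse, in CPM on the y axis (counts scaled by TMM) and by group on the x axis. Points are mice with their animal numbers, and lines are the mean and SD of 3, 3, 4 and 3 mice. For miR-126a-3p the naive mdx mice (2815 to 4196 CPM) sit below the naive wt mice (6313 to 9592 CPM), and vehicle mouse 41 (9822 CPM) stands far above the 3 others of its group.

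mmu-miR-143-3p, which marks contractile smooth muscle, had 6658, 9756 and 8879 CPM in naive wt mice 86, 89 and 95. The naive mdx mice 36, 37 and 39 had 3316, 7462 and 5528 CPM. The vehicle mice 40, 41, 42 and 43 had 6833, 9945, 8444 and 5422 CPM, and the Givinostat mice 31, 34 and 35 had 7730, 9718 and 8582 CPM. Mouse 36 was the lowest of all 13, the naive mdx range reached into the naive wt range through mouse 37, and all 3 Givinostat mice were above all 3 naive mdx mice. The means were 8676 ± 997 CPM with Givinostat, 8431 ± 1597 in naive wt, 7661 ± 1960 with vehicle and 5435 ± 2074 in naive mdx mice, with no difference beyond the spread between neighbours. Its other arm, miR-143-5p, was read at 25 to 79 counts per library.

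The hairpins of miR-143 and miR-145a lie on the minus strand of chromosome 18 (GRCm38), at bases 61649196 to 61649258 and 61647825 to 61647894, with 1301 bases between them. GENCODE places no gene over either hairpin, and its nearest gene on the same strand, the long noncoding RNA Carmn, has its nearer edge 367 bases from Mir143. RefSeq draws Carmn from base 61645878 to 61665538, over both hairpins. miR-145b, a near copy of miR-145a from another site of the chromosome (bases 69022199 to 69022273, minus strand), had 0 to 3 counts per library.

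mmu-miR-145a-5p, the arm known to hold back proliferation of smooth muscle cells, had 761, 895 and 558 CPM in the naive wt mice. It had 1422, 801 and 630 CPM in naive mdx mice 36, 37 and 39, and 1417, 739, 856 and 1065 CPM in vehicle mice 40, 41, 42 and 43. The Givinostat mice had 668, 977 and 940 CPM. Mice 36 and 40 stood above the others, and the 4 groups overlapped. The means were 1019 ± 297 CPM with vehicle, 951 ± 417 in naive mdx, 862 ± 169 with Givinostat and 738 ± 170 in naive wt mice.

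mmu-miR-145a-3p, cut from the opposite side of the same hairpin, had its 2 lowest levels by TMM in the very mice where the 5p arm was highest. It had 332 CPM in mouse 36 and 350 CPM in mouse 40, against 789 CPM in naive mdx mouse 37, 526 in mouse 39 and 567, 569 and 489 CPM in the other vehicle mice (41, 42 and 43). The naive wt mice 86, 89 and 95 had 516, 599 and 544 CPM and the Givinostat mice 31, 34 and 35 had 641, 636 and 759 CPM. The Givinostat mice thus lay above all naive wt and all vehicle mice. The means were 679 ± 69.7 CPM with Givinostat, 553 ± 42.4 in naive wt, 549 ± 229 in naive mdx and 494 ± 103 with vehicle, and neighbours in this order and in that of the 5p arm did not differ beyond their spread. By library totals the Givinostat mice overlapped with both the naive wt and the vehicle mice. On that scale mouse 40 was still the lowest for miR-145a-3p (352 CPM). Mouse 36 (454 CPM) stood above naive wt mice 86 and 95 (389 and 399 CPM).

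Naive mdx mice were compared with naive wt mice as the contrast of genotypes in untreated animals. By the methods of the study the genotypes were bought as separate stocks, so loss of dystrophin and stock cannot be told apart. miR-126a-3p fell by 1.07 on the log2 scale (SE 0.36, 95% interval -1.83 to -0.30, adjusted p = 0.0254, edgeR quasi-likelihood test over all tested miRNAs), which is 2.09-fold, and it was lower in 3 of 3 naive mdx mice. It was the only one of the 5 that passed the test, 1 of 5 beside 43.5% of all tested miRNAs called either way and 16.6% called lower. For miR-126a-5p the log2 difference was -0.89 (SE 0.36, adjusted p = 0.0546), and for miR-143-3p it was -0.63 (SE 0.30, adjusted p = 0.0889). Both miss the threshold. miR-145a-5p stood at +0.37 (SE 0.32, adjusted p = 0.347) and miR-145a-3p at -0.01 (SE 0.28, adjusted p = 0.981). Scaled by TMM, the 2 groups did not overlap for both arms of miR-126a, 2 of 5, beside 57.6% of all tested miRNAs. By share of counts both arms overlapped. For miR-126a-5p the share was 0.0212% to 0.0723% in naive wt and 0.0220% to 0.0304% in naive mdx mice. The median difference was -0.63 over the 5 miRNAs and 0.04 over all tested ones.

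The call on miR-126a-3p depends on the scaling and on single mice. By library totals its log2 difference was -0.79 (adjusted p = 0.168), where the median of all tested miRNAs moved to +0.43, and by share of counts the groups overlapped, with 0.499%, 1.18% and 0.463% in naive wt and 0.385%, 0.352% and 0.496% in naive mdx mice. Relative to the median of all tested miRNAs the difference was -1.10 with TMM, -1.22 with library totals and -1.07 with upper-quartile factors. Liver and muscle miRNAs differed in opposite directions, here on counts scaled by TMM. The liver list summed to 316730 to 893080 CPM in naive wt and 13945 to 95975 CPM in naive mdx mice, and the list of skeletal and heart muscle to 9637 to 17569 and 207230 to 422310 CPM. Their part in the unscaled library totals was not tested. Without mouse 89 the adjusted p of miR-126a-3p was 0.102, without mouse 36 it was 0.0738 and without mouse 37 it was 0.0526, and it stayed lower in each case.

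Vehicle mice were compared with the same naive wt mice, so this comparison shares its controls with the one above. None of the 5 passed the edgeR test, 0 of 5 at an adjusted and 0 of 5 at an unadjusted p under 0.05, beside 47.3% and 56.8% of all tested miRNAs. DESeq2 called 0 of the 5 as well, as did limma on the deposited log2 values, which carry scaling by library totals. The log2 difference was -0.46 for miR-126a-3p (SE 0.33, adjusted p = 0.247) and -0.62 for miR-126a-5p (SE 0.33, adjusted p = 0.129). It was -0.14 for miR-143-3p, +0.47 for miR-145a-5p and -0.16 for miR-145a-3p, with adjusted p-values of 0.682, 0.197 and 0.605. The groups overlapped for all 5 (beside 52.2% of tested miRNAs without overlap). One mouse decides this result. Without vehicle mouse 41, 3 of the 5 passed, beside 110 higher and 81 lower among all 364 miRNAs tested in that fit. These 3 were miR-126a-3p at -0.73 (adjusted p = 0.0274), miR-126a-5p at -0.85 (adjusted p = 0.0190) and miR-145a-5p at +0.76 (adjusted p = 0.0483, edgeR). Nothing in its labels sets mouse 41 apart, and its library held 1283646 counts, within the range of the other mdx libraries.

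Givinostat mice against naive wt mice, again with shared controls, gave 0 of 5 called by edgeR (0 of 5 at an unadjusted p under 0.05, and 0 of 5 by DESeq2 and by limma), beside 34.2% of all tested miRNAs (45.1% at the unadjusted p). The log2 difference was -0.41 for miR-126a-3p (SE 0.36, 95% interval -1.17 to 0.35, adjusted p = 0.383), so a fall as large as that of the naive mdx mice lies inside the interval. The others lay between -0.23 (miR-126a-5p) and +0.30 (miR-145a-3p). Scaled by TMM, the groups did not overlap for miR-145a-3p, 1 of 5, beside 53.8% of tested miRNAs. By library totals they did, as naive wt mouse 89 (734 CPM) stood above Givinostat mice 34 and 35 (595 and 664 CPM).

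Among mdx mice, gavage with vehicle and treatment with Givinostat were each compared with naive mdx mice, and Givinostat with vehicle, the comparison that addresses the drug. Vehicle against naive mdx mice gave 0 of 5 called (0 of 5 unadjusted, and 0 of 5 by DESeq2 and limma), beside 0.0% of all tested miRNAs (4.62% unadjusted), with no groups apart (beside 2.17%). miR-126a-3p was at +0.61 (SE 0.34, adjusted p = 0.801) and miR-143-3p at +0.50 (SE 0.28, adjusted p = 0.801). Givinostat against naive mdx mice gave 0 of 5 called by edgeR, DESeq2 or limma, beside 0.0%, and 1 of 5 at an unadjusted p under 0.05, beside 48 of all 368 tested miRNAs. That 1 was miR-143-3p, at +0.67 (SE 0.30, 95% interval 0.05 to 1.30, adjusted p = 0.338). miR-126a-3p and miR-126a-5p were both at +0.66 (SE 0.36 each, adjusted p = 0.430 each). Groups did not overlap for miR-126a-5p and miR-143-3p, 2 of 5, beside 15.5% of tested miRNAs.

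Givinostat against vehicle gave 0 of 5 called (0 of 5 unadjusted, and 0 of 5 by DESeq2 and limma), beside 0.272% of all tested miRNAs, which is 1 miRNA (6.79% unadjusted). miR-126a-3p differed by +0.05 on the log2 scale (SE 0.34, 95% interval -0.66 to 0.76) and miR-126a-5p by +0.39 (SE 0.33, 95% interval -0.32 to 1.09). miR-143-3p was at +0.18, miR-145a-5p at -0.24 and miR-145a-3p at +0.46 (SE 0.26, adjusted p = 0.710). Scaled by TMM, all 3 Givinostat mice were above all 4 vehicle mice for miR-145a-3p, 1 of 5, beside 7.61% of tested miRNAs. By library totals they overlapped, with 595 CPM in Givinostat mouse 34 and 601 CPM in vehicle mouse 41. With 3 and 4 mice these intervals reach from a fall to a rise of over 1.5-fold for miR-126a-3p, so a change of that size was not detectable here. The red cell miRNA miR-451a also stood higher in all 3 Givinostat than in all 4 vehicle mice, at +0.76 (SE 0.22, adjusted p = 0.255, edgeR), and its part in these differences was not tested.

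**Figure D2:**
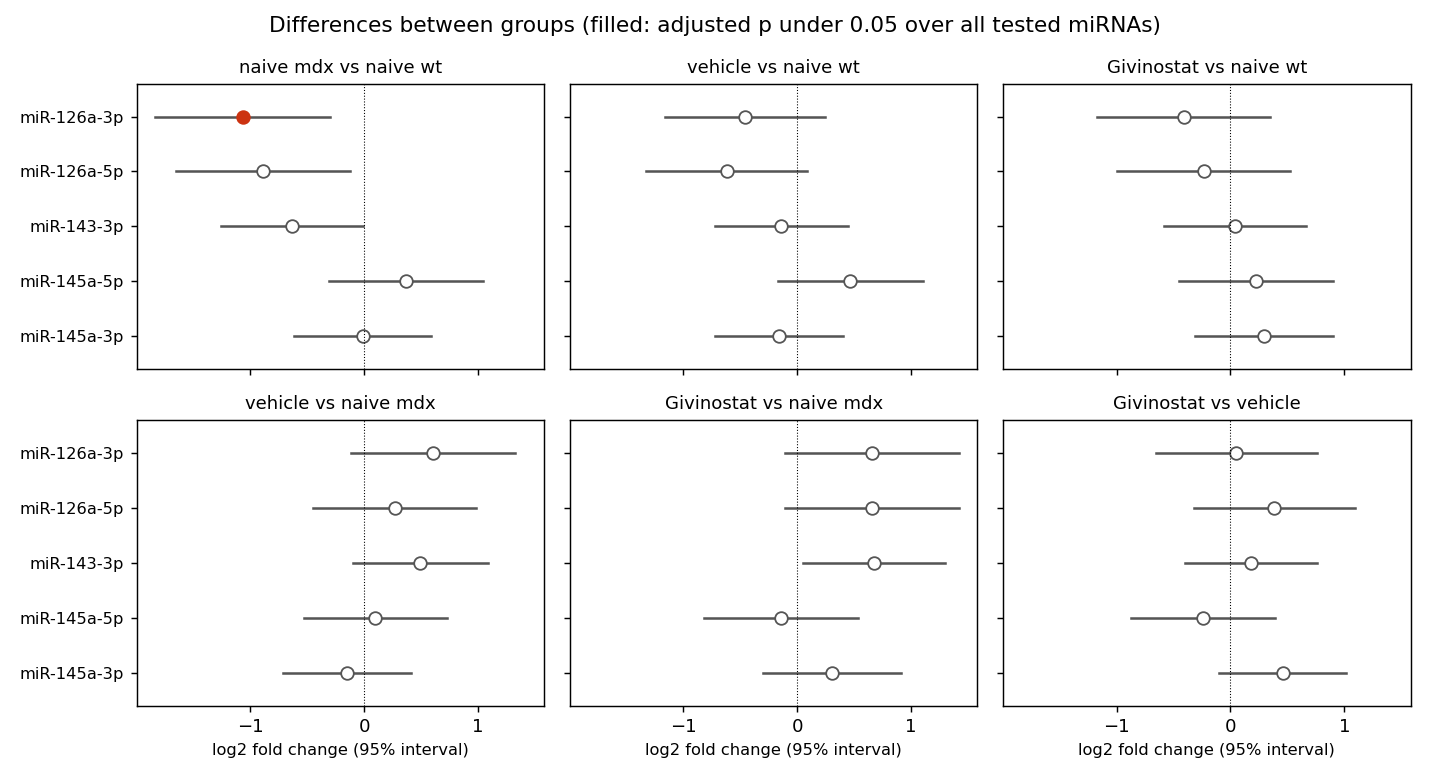
Log2 fold change of each of the 5 miRNAs on the x axis in the 6 comparisons, first named group over second, with 95% intervals from the edgeR model. The filled point, miR-126a-3p in naive mdx against naive wt mice (-1.07), is the 1 value of 30 with an adjusted p under 0.05.

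Ratios of 2 miRNAs within a library do not depend on the scaling between libraries. They were compared between the 3 naive wt and all 10 mdx mice by a two-sided exact permutation test of the mean log2 ratio, where the smallest possible p is 0.00699, and adjusted over the 4 ratios. Within hairpins, miR-126a-3p was 10.4 to 23.6 times as frequent as miR-126a-5p over the 13 mice. The mean log2 ratio of these arms was 4.16 ± 0.36 (SD, n = 3) in naive wt and 4.06 ± 0.35 (SD, n = 10) in mdx mice (exact permutation p = 0.685, adjusted p = 0.685). Between hairpins, the mean log2 ratio of miR-126a-3p to miR-143-3p was -0.17 ± 0.27 in naive wt and -0.60 ± 0.40 in mdx mice (exact permutation p = 0.105, adjusted p = 0.350). The lowest ratios were those of Givinostat mouse 35 and vehicle mouse 42 (-1.24 and -1.06), and the highest, -0.01, that of naive wt mouse 86, so the groups overlapped.

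The arms of miR-145a were near balance in most mice and far from it in a few. The ratio of miR-145a-5p to miR-145a-3p was 1.02 to 1.54 in 10 of the mice, including all naive wt and all Givinostat mice, 2.18 in vehicle mouse 43, 4.04 in vehicle mouse 40 and 4.28 in naive mdx mouse 36. These ratios rest on 1663 and 764, 2029 and 502, and 2271 and 530 counts. The mean log2 ratio was 0.39 ± 0.31 in naive wt and 0.75 ± 0.76 in mdx mice (exact permutation p = 0.517, adjusted p = 0.685). The neighbouring miR-143-3p was 8.75 to 15.9 times as frequent as miR-145a-5p in naive wt mice and 2.33 to 13.4 times in mdx mice, with the low values in the same 3 mice, 36 (2.33), 40 (4.82) and 43 (5.09). The mean log2 ratio was 3.52 ± 0.44 in naive wt and 2.93 ± 0.76 in mdx mice (exact permutation p = 0.175, adjusted p = 0.350). Between single groups of 3 and 4 mice none of the 4 ratios reached the smallest p that the test allows (0.1 for 3 against 3 and 0.0571 for 3 against 4), and all ranges overlapped.

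**Figure D3:**
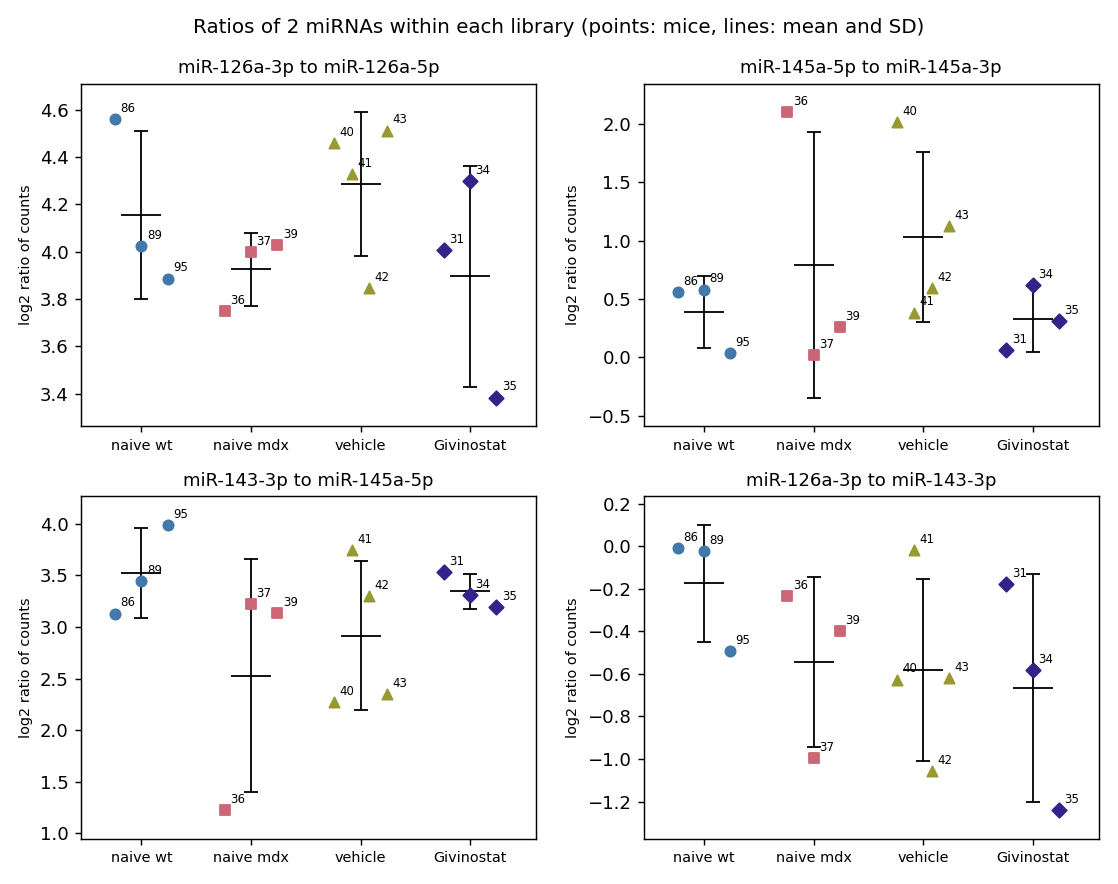
Log2 ratio of raw counts within each library on the y axis, by group on the x axis, for 2 pairs of arms and 2 pairs from different hairpins, with 0.5 added to each count. Points are mice and lines the mean and SD. Mice 36, 40 and 43 stand high in the ratio of miR-145a-5p to miR-145a-3p (2.10, 2.01 and 1.12) and low in that of miR-143-3p to miR-145a-5p (1.22, 2.27 and 2.35).

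Across mice, both arms of miR-126a went together, and those of miR-145a went apart in a pair of mice. On log2 CPM over all 13 mice, Pearson's r of miR-126a-3p with miR-126a-5p was 0.82 and Spearman's rho 0.73 (permutation p = 0.00070 and 0.00673, adjusted p = 0.0070 and 0.0673 over 10 relations). Within the 10 mdx mice r was 0.78 and rho 0.65 (permutation p = 0.00660 and 0.0485, adjusted p = 0.022 and 0.0972). Without mice 41 and 89, the farthest from the median of miR-126a-3p, r was 0.68 over the others, and within the mdx mice it was 0.47 without mice 41 and 31. For miR-145a-5p and miR-145a-3p, r was -0.58 and rho -0.31 (permutation p = 0.0372 and 0.306, adjusted p = 0.0465 and 0.327), and without mice 36 and 40 r was +0.18, so the negative relation rests on these 2 mice. On CPM by library totals r was -0.01 for the miR-145a arms over the 13 mice and -0.71 within the 10 mdx mice, and 0.84 and 0.79 for the miR-126a arms.

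Within the mdx mice r was -0.69 and rho -0.52 for the miR-145a arms (permutation p = 0.0266 and 0.135, adjusted p = 0.0407 and 0.192), and r was 0.03 without mice 36 and 40, on which this relation too rests. miR-126a-3p and miR-143-3p, from endothelium and smooth muscle by their usual sites, went together, with r of 0.70 and rho of 0.66 over 13 mice (permutation p = 0.00524 and 0.0158, adjusted p = 0.022 and 0.0788). Without the 2 farthest mice r was 0.62. Within the mdx mice r was 0.70 and rho 0.65 (permutation p = 0.0255 and 0.0486, adjusted p = 0.0407 and 0.0972), and 0.72 without mice 41 and 31. miR-143-3p and miR-145a-3p gave r of 0.67 and rho of 0.59 (permutation p = 0.0148 and 0.0384, adjusted p = 0.0369 and 0.0972), with r of 0.36 without mice 36 and 43, so that this relation rests largely on them. miR-143-3p and miR-145a-5p gave r of -0.46 and rho of -0.30 (permutation p = 0.118 and 0.327, adjusted p = 0.131 and 0.327), with r of 0.07 without mice 36 and 43. None of the rank correlations passed after adjustment, and levels of 1 library share its depth and scaling.

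**Figure D4:**
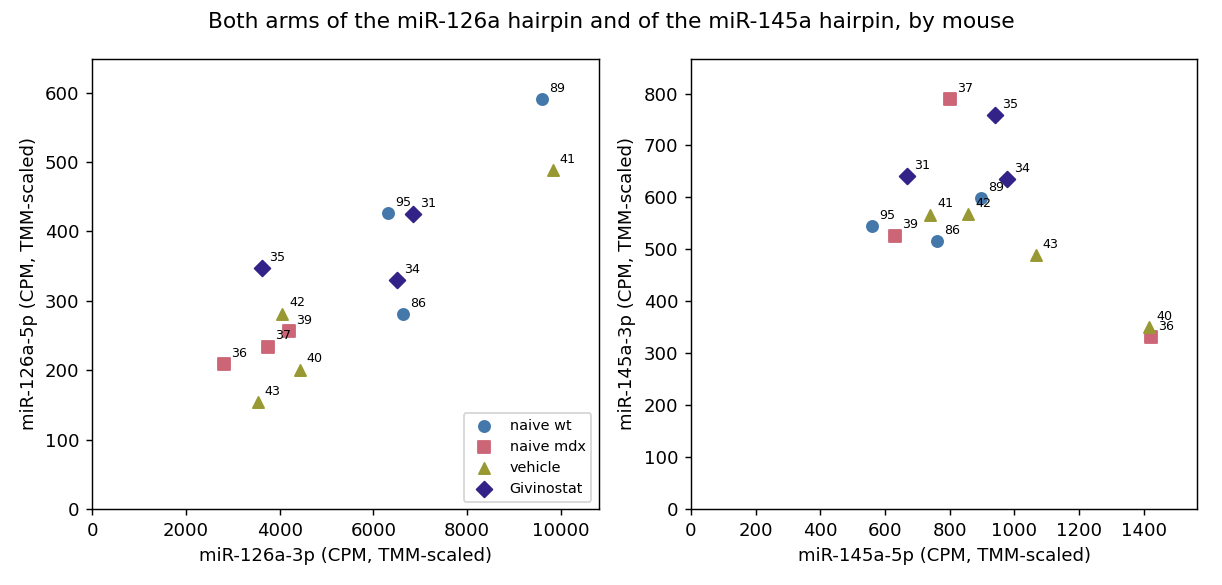
Level of one arm against the other for the miR-126a hairpin and the miR-145a hairpin, both axes in CPM (counts scaled by TMM). Each point is a mouse with its animal number, and groups differ in colour and shape. In the first panel the points climb together (r = 0.82 on log2 CPM), and in the second mice 36 and 40 lie apart from the others at the highest 5p and lowest 3p levels.

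The miRNAs whose levels ran most like those of the 5 were named by Pearson's r of log2 CPM over the 13 libraries, as a description. For miR-126a-3p they were let-7i-5p (r = 0.88), miR-218-5p (0.87) and miR-26b-5p (0.86), and for miR-126a-5p they were miR-136-5p (0.92), miR-26b-5p (0.92) and miR-219a-2-3p (0.87). For miR-143-3p they were let-7g-5p (0.91), miR-26a-5p (0.83) and miR-9-5p (0.82). miR-145a-5p ran with other miRNAs altogether, namely miR-700-3p (0.84), miR-191-5p (0.81) and miR-328-3p (0.79). miR-145a-3p had the weakest partners, miR-136-3p (0.71), miR-708-3p (0.68) and miR-143-3p (0.67). miR-26b-5p stood on the lists of both miR-126a arms, and miR-143-3p was the 1 partner drawn from the 5 themselves.

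Other miRNAs usually placed in endothelium mostly did not pass in naive mdx against naive wt mice. Of the 22 others on the endothelial list, 5 rose, 1 fell and 16 did not pass in naive mdx against naive wt mice, with a median log2 difference of -0.29 (0.04 over all tested miRNAs). Over all tested miRNAs 26.9% were called higher and 16.6% lower in this comparison, the background for this and the following lists. Those that rose include miR-23a-3p (+1.04, adjusted p = 0.00160, edgeR), miR-27b-3p (+1.13, adjusted p = 0.00962), which are made from clusters active in many tissues, and miR-100-5p (+0.84, adjusted p = 0.0159). The 1 that fell was miR-218-5p, at -1.80 (SE 0.50, adjusted p = 0.00861), an intronic miRNA of the Slit genes and also among the partners of miR-126a-3p above. The summed level of the list, in which miR-126a counts, was 65437 to 73838 CPM in naive wt, 61956 to 73859 in naive mdx, 63389 to 74726 with vehicle and 63529 to 73481 with Givinostat, so the ranges of all groups overlapped. In vehicle against naive wt mice 5 of these 22 rose and 5 fell (24.2% and 23.1% of all tested miRNAs), and in Givinostat against naive wt mice 4 rose and 0 fell (22.6% and 11.7%).

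On the list of smooth muscle and stroma, 13 tested miRNAs other than the members had 3 that rose, 6 that fell and 4 that did not pass in naive mdx against naive wt mice, with a median of -0.56, beside the same 26.9% called higher and 16.6% called lower. The falls include miR-26a-5p (-0.94, SE 0.29, adjusted p = 0.0162, edgeR) and the fibroblast miRNAs miR-199a-5p (-1.84, SE 0.31, adjusted p = 0.000159) and miR-214-3p (-1.11, SE 0.27, adjusted p = 0.00355). The rises were the 3 members of the miR-29 family, which represses collagen genes, with miR-29a-3p at +1.42 (SE 0.25, adjusted p = 0.000280). The list summed to 57708 to 71292 CPM in naive wt, 32375 to 57258 in naive mdx, 36330 to 64742 with vehicle and 54231 to 64965 with Givinostat. Its 2 untested members were miR-145b and miR-199a-3p, with 9 and 1 counts over all libraries. Against naive wt, 2 of the 13 rose and 6 fell with vehicle (beside 24.2% and 23.1% of all tested miRNAs). With Givinostat 2 rose and 4 fell (beside 22.6% and 11.7%).

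Some blood cell miRNAs differed between the same groups, and their part in the levels of miR-126a was not tested. Of the platelet list, 2 of 9 tested rose and 1 fell in naive mdx against naive wt mice, beside 26.9% called higher and 16.6% lower among all tested miRNAs, and its summed level was 19063 to 23113 CPM in naive wt, 37574 to 43282 in naive mdx, 32400 to 38459 with vehicle and 30993 to 31685 with Givinostat, higher in every mdx mouse. The member with the most counts was miR-24-3p, with means of 10207 CPM in naive wt, 25055 in naive mdx, 20624 with vehicle and 19439 with Givinostat, at +1.30 in naive mdx against naive wt mice (SE 0.24, adjusted p = 0.000341, edgeR). The higher sum thus lay largely in this 1 miRNA, and 6 of the 9 did not pass in naive mdx against naive wt mice. miR-223-3p, abundant in platelets and granulocytes, had a mean of 268 CPM in naive wt, 274 in naive mdx, 171 in vehicle and 196.5 in Givinostat mice. In vehicle against naive wt mice it was at -0.65 (adjusted p = 0.0661, edgeR) with no overlap, and miR-107-3p was too low to test, with 15 counts in all. Of the red blood cell list, 2 of 7 rose and 4 fell. The rises were miR-486b-5p, at +1.46 (SE 0.42, adjusted p = 0.0107, edgeR), and miR-486a-5p, at +2.21 (SE 0.48, adjusted p = 0.00163), both also made in muscle. miR-451a, the miRNA of red cells, was at -1.17 (SE 0.24, adjusted p = 0.00106, edgeR), and the sum of the list was 8425 to 10696 CPM in naive wt, 7996 to 14085 in naive mdx, 9882 to 15049 with vehicle and 12196 to 14058 with Givinostat. Of the white blood cell list, 0 of 7 rose and 2 fell, with sums of 16026 to 21048, 10023 to 12929, 8728 to 10327 and 9555 to 11631 CPM in the same order of groups. None of the defining markers of these lists was at 0 in a whole group.

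The red cell ratio, miR-451a over miR-23a-3p on the log2 scale and a usual measure of red cell lysis, lay between -0.11 and 0.11 in naive wt mice and between -2.68 and -1.80 in naive mdx mice, with no overlap. It lay between -2.13 and -1.67 in vehicle and between -1.54 and -0.69 in Givinostat mice, again with no overlap between those groups. Both terms of the ratio differed in naive mdx against naive wt mice, miR-451a at -1.17 and miR-23a-3p at +1.04 (adjusted p = 0.00106 and 0.00160, edgeR). The ratio is therefore not a measure of the red cell miRNA alone here, and red cell lysis itself was not tested. With this ratio as a covariate the log2 difference of miR-126a-3p turned to +0.74 (adjusted p = 0.992) and only 1 of all 368 tested miRNAs passed. As the ratio separates the genotypes, it and the genotype cannot be told apart in that model. Without the red blood cell list among the counts, miR-126a-3p was at -1.07 (adjusted p = 0.0211). Muscle and liver markers moved most, as given above, with 7 of 8 muscle miRNAs higher and 4 of 4 liver miRNAs lower in naive mdx mice. Without these lists among the counts, miR-126a-3p was at -1.31 (adjusted p = 0.00462), miR-126a-5p at -1.15 (adjusted p = 0.0144) and miR-143-3p at -0.90 (adjusted p = 0.0165, edgeR). Thus 3 of the 5 passed, beside 75 higher and 108 lower among all 361 tested miRNAs, whose median moved to -0.22.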

How the data were processed

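Plasma RNA was extracted with miRNeasy Serum/Plasma kits, made into NEBNext small RNA libraries, selected by size and sequenced, with no molecular identifiers described. The notes of the submitters name bcl2fastq 1.37.0, cutadapt 1.4.2, Bowtie 1.0.0 and mm10, and the methods name Trimmomatic. Reads of at most 25 bases had to match the genome exactly, longer ones could hold 2 mismatches, and both were assigned by miRBase release 21. The authors deposited raw counts summed over isomiRs, used for all main results, and a table of log2 values, used only in the limma alternatives with a pseudocount of 1 or 5. Within each library the latter are log2 counts of at least 4 plus 1 constant, which brings all 13 libraries to the same total (1426717), so limma carries scaling by library totals. All 13 columns were matched to samples by title.

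Counts were tested in 1 edgeR 4.0.16 model of all 13 libraries (R 4.3.3, TMM, filterByExpr with a minimum count of 10, quasi-likelihood F test, legacy = FALSE), tested first on simulated data. Adjusted p-values are Benjamini-Hochberg over 368 miRNAs with a threshold of 0.05, and the SE is the size of the log2 fold change over the square root of F. Ratios used raw counts plus 0.5, and relations used log2 (CPM + 1) with 100000 permutations (scipy 1.17.1). Limits from a count of 0 cover counting error only. The 15 pairs of libraries within groups differed by far more than counting noise. Mice were grouped by title. The labels do not say how the sequenced mice were housed or drawn. By the methods of the study, mice were randomized by body weight and several shared a cage. Cages are not in the labels and could not enter the model. The p-values set differences between groups against the spread between these mice.

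The 5 miRNAs and the 7 marker lists were chosen with earlier results of these data known. Named were the 5 and their other arms and near copies (miR-143-5p, miR-126b, miR-145b), the 3 tested miRNAs of highest r for each, and up to 4 called members per list by mean CPM. miR-223-3p and the untested list members were named after their values were seen. Positions are from GENCODE M21 and sequences from RefSeq, which matched 1 of the 5 names. Alternatives were scaling by RLE, upper quartile or library totals, other filters, DESeq2 1.42.0, limma 3.58.1 and other edgeR settings, counts without marker lists, a red cell covariate, other added counts and each library left out.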

Additional observations from a re-analysis of the deposited data

Results flagged for a closer look

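miR-126a-3p in vehicle mouse 41 had 9822 CPM, far above the 3 other vehicle mice (3529 to 4426 CPM). The gap was 0.857 of the range of the group, above Dixon's critical value of 0.829 for 4 samples. The same check was run on the 5 levels and the 4 ratios of the vehicle group, the 1 group of 4 mice, and it singled out this 1 value of 9. Chance alone flags about 1 in 20 at each check, a rate that does not hold for the 9 together. The 9 are not independent either, since the ratios use the counts behind the levels. The mouse was also the highest of its group for miR-126a-5p (488 CPM) and miR-143-3p (9945 CPM), and it decides the number of the 5 miRNAs that pass in vehicle against naive wt mice (0 with it, 3 without it). Among all tested miRNAs, 89 were higher and 85 lower of 368 with it, and 110 higher and 81 lower of 364 without it. The cause was not tested.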

How the results depend on the processing

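In naive mdx against naive wt mice 1 of the 5 miRNAs passed. It was 2 with RLE factors, without a filter, with the filter at a mean of 10 CPM and with DESeq2 on all or on 2 groups, as miR-126a-5p joined miR-126a-3p, and 3 with upper-quartile factors or without the liver and muscle lists, as miR-143-3p joined too. It was 0 with library totals, with limma (pseudocount 1 or 5) and with the red cell covariate, and 0 to 2 when each library was left out. The values used by limma were scaled to a common library total when deposited, so library totals and limma are 1 choice of scaling and not separate checks. In vehicle against naive wt mice 0 passed, 1 without the liver and muscle lists and 0 to 3 with a library left out. In the 4 other comparisons 0 passed under each of the 28 alternatives. Over all tested miRNAs in naive mdx against naive wt mice, 99 were higher and 61 lower, against 82 and 96 with upper-quartile factors, 118 and 23 with library totals, 115 and 19 or 112 and 18 with limma, and 75 and 108 without the liver and muscle lists. With the covariate 1 passed in place of 160, 2 in place of 174 (vehicle against naive wt) and 22 in place of 126 (Givinostat against naive wt). Givinostat against vehicle gave 0 to 6 and Givinostat against naive mdx 0 to 11.

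Of 840 log2 fold changes of the 5 miRNAs under the alternatives, 60 changed sign, none of them past the threshold in its new direction. The cause was not tested. With library totals miR-145a-3p turned to +0.26 in naive mdx against naive wt and miR-145a-5p to -0.16 in vehicle against naive mdx mice. With limma at either pseudocount miR-145a-3p was at +0.29 in the first, miR-126a-5p at -0.063 or -0.061 and miR-145a-5p at -0.056 in the second, and in vehicle against naive wt miR-143-3p was at 0.033 and miR-145a-3p at 0.00318 or 0.00301. With upper-quartile factors miR-143-3p was at -0.057 in Givinostat against naive wt and miR-145a-5p at 0.00815 in Givinostat against naive mdx. Without the liver and muscle lists miR-145a-5p was at -0.00703 and miR-143-3p at -0.22 in Givinostat against naive wt, and miR-126a-3p at -0.00817 in Givinostat against vehicle.

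With the red cell covariate, miR-126a-5p, miR-126a-3p and miR-145a-5p turned to +0.020, +0.74 and -0.29 in naive mdx against naive wt, to +0.14, +1.03 and -0.10 in vehicle against naive wt, and to +0.19, +0.37 and -0.090 in Givinostat against naive wt, where miR-143-3p was at -0.13 and miR-145a-3p at -0.25. Among mdx mice, miR-145a-3p turned to +0.033 in vehicle against naive mdx, miR-126a-3p to -0.37 and miR-145a-5p to +0.20 in Givinostat against naive mdx, and these to -0.66 and +0.012 in Givinostat against vehicle.

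With each library left out, the signs changed for miR-145a-3p (-0.35 to 0.27) and miR-145a-5p (-0.014 to 0.56) in naive mdx against naive wt. In vehicle against naive wt they changed for miR-143-3p (-0.29 to 0.14) and miR-145a-3p (-0.24 to 0.15), and in Givinostat against naive wt for miR-143-3p (-0.14 to 0.16) and miR-126a-5p (-0.50 to 0.050). In vehicle against naive mdx they changed for miR-145a-3p (-0.40 to 0.22), miR-145a-5p (-0.062 to 0.52) and miR-126a-5p (-0.072 to 0.50), in Givinostat against naive mdx for miR-145a-5p (-0.32 to 0.24), and in Givinostat against vehicle for miR-126a-3p (-0.13 to 0.44). The mean difference of the log2 ratio of the miR-126a arms was -0.23 to 0.11, crossing 0 without naive wt mouse 86. The 3 other ratios kept their sign and stayed short of the threshold under all alternatives. No paired analysis was possible because the groups share no animal numbers. With 3 or 4 mice a group, the spread between mice and not the depth limits these comparisons.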

Other observations

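In ratios computed after the values were seen, miR-143-3p was low beside both miR-145a-3p and its own other arm in the naive mdx mice. The ratio of miR-143-3p to miR-145a-3p was 9.46 to 10.5 in naive mdx mice, against 12.9 to 16.3 in naive wt, 11.3 to 15.3 in Givinostat and 11.1 to 19.5 in vehicle mice. The ratio of miR-143-3p to miR-143-5p was 174 to 208 in naive mdx mice, against 218 to 314 in naive wt, 257 to 487 in Givinostat and 235 to 356 in vehicle mice, on 25 to 79 counts of miR-143-5p. Each was below all mice of the 3 other groups. The two-sided exact permutation p was 0.1 against naive wt, 0.0571 against vehicle and 0.1 against Givinostat for both ratios, which are the smallest these group sizes allow and only restate the separation already seen. Over all 10 mdx mice against naive wt mice the mean log2 difference was -0.24 (exact permutation p = 0.301) for miR-143-3p to miR-145a-3p and 0.0042 (exact permutation p = 0.979) for miR-143-3p to miR-143-5p. Both ratios use the counts of miR-143-3p.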
